A study of Mus musculus with 2 samples.

Results

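Glycolysis and hypoxia response genes were followed in sorted mouse mammary basal cells after macrophage depletion. The set held 38 of the 49492 genes in the count table and was chosen by gene symbol: glucose entry, glycolytic enzymes, lactate transport, the hypoxia-inducible factors (HIFs) with their oxygen sensors, and targets of these factors. Of these, 38 of 38 had at least 20 counts over both libraries, the minimum for testing, and 28 had at least 1000. The study compared 1 library of basal cells from mice given clodronate liposomes (CL basal) with 1 library from control mice (Ctrl basal). Liposomes loaded with clodronate are taken up by phagocytes and kill them from within. They were injected repeatedly into the peritoneum of adult wild-type females, and cells of both groups carry the time label day 7. The control cells are labelled as having no treatment, while the description of the series calls them saline treated. In both groups the basal fraction was sorted as lin−CD24+CD29hi cells, with white blood cells, endothelial cells and red cells gated out by CD45, CD31 and TER119, the gate that holds myoepithelial and mammary stem cells. No source used here states how many mice gave cells to each library.

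Glycolysis turns glucose into pyruvate, and cells that are short of oxygen reduce the pyruvate to lactate and export it. HIFs are pairs of an oxygen-labile alpha subunit with a stable partner. When oxygen is plentiful, prolyl hydroxylases mark the alpha subunit for the VHL ubiquitin ligase, and when oxygen falls the subunit persists and activates genes of glucose uptake, glycolysis, vessel growth and mitophagy. Much of this control acts on the protein, which RNA counts do not show. In the mammary gland, basal cells form the contractile outer layer of the ducts and rest on the basement membrane.

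The CL basal library held 38962512 counts and the Ctrl basal library 37846008, and 3 counts, the limit that a count of 0 allows, corresponded to 0.078 CPM, counts divided by effective library size, in either. Basal markers were abundant in both libraries and their median log2 fold change of CL basal over Ctrl basal was 0.082 over 14 genes, from *Itgb4* at -0.51 to *Lgr6* at 0.50. Luminal markers were also present, in sum at 3548 (CL basal) and 5869 CPM (Ctrl basal), and 17 of the 18 were lower in CL basal, with a median log2 fold change of -0.87. The summed fibroblast markers gave 218 and 269 CPM in CL basal and Ctrl basal, endothelial markers 397 and 471, and adipocyte markers 94.6 and 128. Macrophage markers summed to 1060 (CL basal) and 1071 counts (Ctrl basal) over 14 genes, but the members differed in direction, and *Mertk* alone held 421 and 353 of these counts. *Mpeg1* had 88 and 28 counts, *Mrc1* 86 and 168, and the median of the 9 tested was -0.23. *Fcgr1* was at 0 in Ctrl basal and had 4 counts in CL basal. Skeletal muscle markers, of which *Pgam2* and *Eno3* are also glycolytic genes, summed to 365 and 675 counts, and erythroid markers to 14 and 35. Immediate early genes, which respond to tissue dissociation among other stimuli, were higher in CL basal for 14 of 15 genes, with a median of 0.24. The part of these differences in the values that follow was not tested, and in bulk RNA fewer cells of a type and less RNA per cell cannot be told apart.

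No gene of the set changed by 2-fold. A change was called where a two-sided exact binomial test, run on reads, gave a Benjamini-Hochberg adjusted p under 0.05 over all 17356 genes tested and the fold passed the threshold. With 1 library per group this compares the libraries and not the conditions, and the intervals below are 95% exact binomial intervals that cover counting error only. At 2-fold, 0 of 38 genes were called lower and 0 higher, while 4.34% of all genes tested were called lower and 1.88% higher. Abundant genes moved less: among genes with at least 1000 counts, 0.535% were called lower and 0.155% higher at 2-fold, and 0 of the 28 abundant genes of the set were. At 1.5-fold, 1 of 38 was lower, *Aldoc*, where the background was 8.92%, and 1 of 38 was higher, *Ddit4*, where it was 4.15%. Among genes with at least 1000 counts the background at 1.5-fold was 2.21% lower and 1.04% higher, and of the 28 abundant genes 0 were lower and 1, *Ddit4*, was higher. With 38 genes, these counts lie near the background.

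**Figure D1:**
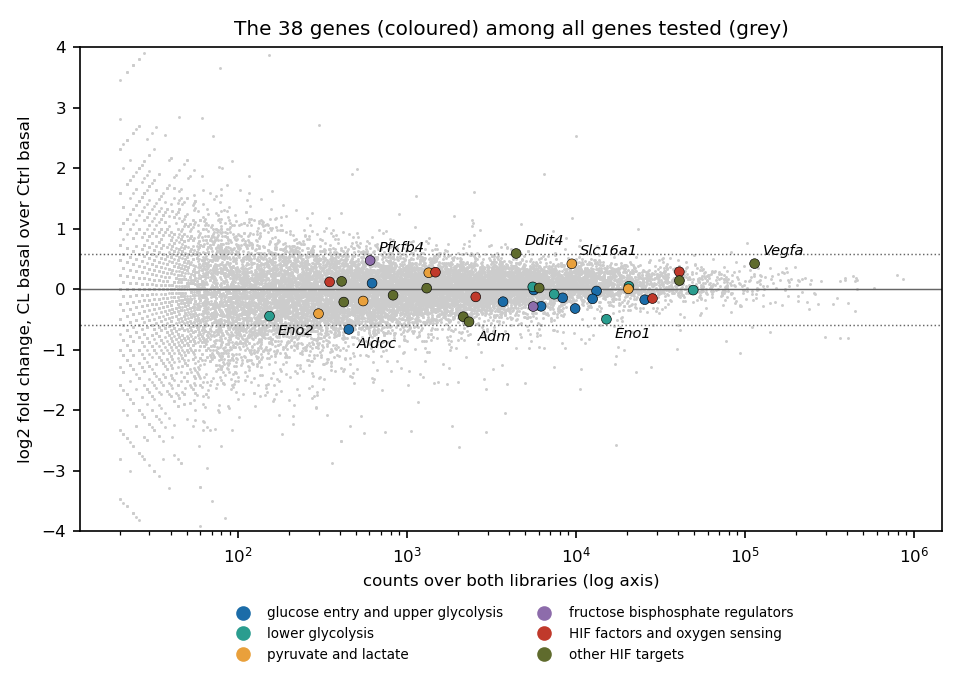
Log2 fold change of CL basal over Ctrl basal (vertical axis) against the counts over both libraries (horizontal log axis) for all genes tested in grey and the 38 genes coloured by role; dotted lines mark 1.5-fold, and 8 grey genes lie beyond the vertical range. *Aldoc* lies below the lower dotted line and *Ddit4* on the upper one, and the other genes of the set fall between them.

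The median log2 fold change of the 38 genes was -0.057, with a range of -0.67 to 0.59, beside -0.0065 for all genes tested and 0.044 for those with at least 1000 counts. With total counts it was -0.096, where all genes tested had -0.045, and with the trend of fold change on expression removed it was -0.10, where all had 0.0024. In CL basal, 22 genes were lower and 16 higher, where 51.8% of all genes tested were lower. The split was 26 and 12 with total counts and also with the trend removed. The interval lay below 0 for 15 genes, above 0 for 9 and held 0 for 14, and over all genes tested it lay below 0 in 25.4% and above 0 in 25.2%. Of the 28 abundant genes of the set, 16 were lower, 13 had an interval below 0 and 8 above, where all genes with at least 1000 counts gave 42.3%, 27.1% and 41.4%. Low counts in these libraries were mostly even numbers, as would arise if the mates of a read pair were counted separately. No source used here states how mates were counted, and this was not tested. With the counts halved, 12 intervals lay below 0, 8 above and 18 held 0, where 17.5% of all genes tested lay below and 18.6% above, and 21.6% and 34.7% of those with at least 1000 counts. The middle 95% of genes with at least 1000 counts ran from -0.55 to 0.48, and 27 of the 28 abundant genes of the set fell inside it, all but *Ddit4*. The set summed to 241907 (CL basal) and 226667 counts (Ctrl basal), and without *Vegfa* to 176689 and 178095.

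Scaled to exon length and library depth (RPKM), levels within the set ran over a wide range, and the order of the genes was led by *Vegfa*, *Pkm*, *Epas1*, *Aldoa*, *Ndrg1*, *Ldha*, *Gapdh*, *Hif1a*, *Slc2a1* and *Pgk1*. *Vegfa* stood at 396 RPKM in the CL basal library and at 296 RPKM in the other, above 99.1% of all genes tested. The other genes of these 10 each stood above at least 92.8%. At the low end *Eno2* had 0.359 RPKM in CL basal and 0.493 RPKM in Ctrl basal.

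**Figure D2:**
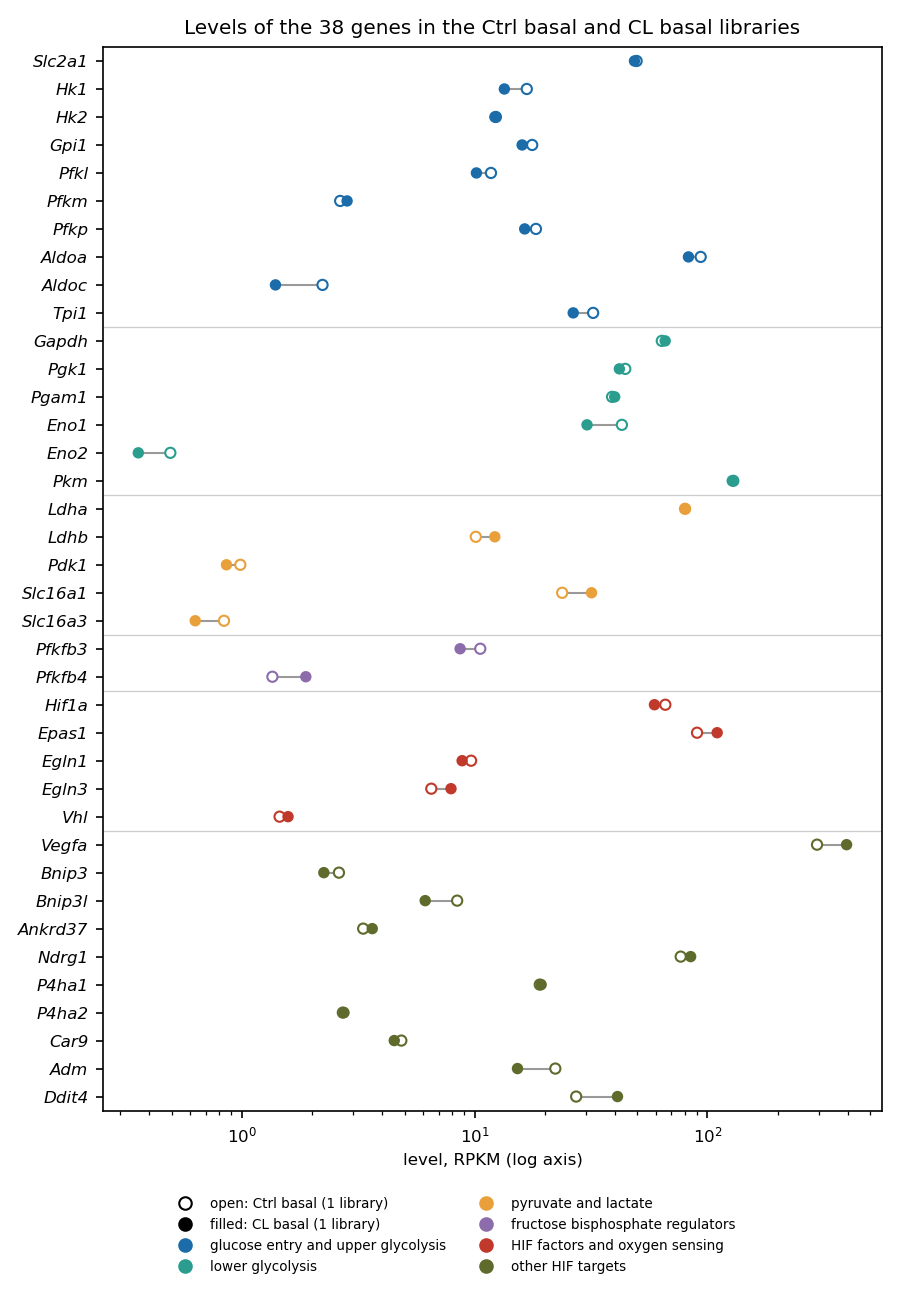
Level of each gene in RPKM (horizontal log axis) in Ctrl basal (open circles) and CL basal (filled circles), 1 library each, by role; the line joins both libraries. The gap between the libraries is small beside the range of levels, and *Vegfa* is the highest gene in both, at 396 RPKM in CL basal and 296 RPKM in Ctrl basal.

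The 250 bases before the transcription start are shown for the genes past 1.5-fold, *Ddit4* and *Aldoc*, and for *Adm* and *Slc16a1*, which carried differences of opposite sign in abundant genes. Sequences are from RefSeq on GRCm38.p6, run 5′ to 3′ on the strand of the gene and are in lower case, with capitals marking ACGTG or GCGTG, the core of the HIF response element, on either strand.
Ddit4 (chr10:59951771-59952020, minus strand): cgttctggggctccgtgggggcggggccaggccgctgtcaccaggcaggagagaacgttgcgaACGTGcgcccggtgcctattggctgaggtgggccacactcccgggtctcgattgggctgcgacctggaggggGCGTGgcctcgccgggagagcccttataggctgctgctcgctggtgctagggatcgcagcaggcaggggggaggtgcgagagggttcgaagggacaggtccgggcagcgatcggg
Aldoc (chr11:78322823-78323072, plus strand): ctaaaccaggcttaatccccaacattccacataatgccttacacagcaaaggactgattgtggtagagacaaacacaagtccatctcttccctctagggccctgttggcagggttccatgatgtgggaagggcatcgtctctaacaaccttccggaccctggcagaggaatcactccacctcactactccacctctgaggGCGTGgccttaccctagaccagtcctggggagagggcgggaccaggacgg
Adm (chr7:110627407-110627656, plus strand): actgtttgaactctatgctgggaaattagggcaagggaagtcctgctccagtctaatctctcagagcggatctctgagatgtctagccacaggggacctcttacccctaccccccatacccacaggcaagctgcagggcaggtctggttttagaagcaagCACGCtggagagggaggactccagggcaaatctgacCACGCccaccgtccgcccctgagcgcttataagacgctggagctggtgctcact
Slc16a1 (chr3:104638414-104638663, plus strand): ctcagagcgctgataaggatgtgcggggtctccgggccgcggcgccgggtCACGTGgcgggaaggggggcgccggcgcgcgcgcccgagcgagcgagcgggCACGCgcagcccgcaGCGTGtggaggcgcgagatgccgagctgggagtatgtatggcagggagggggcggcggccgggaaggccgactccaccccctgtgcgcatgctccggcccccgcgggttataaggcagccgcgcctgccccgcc
CACGTG holds ACGTG on each strand and counts as 2 overlapping matches, as in the *Slc16a1* window, which held 4. The *Ddit4* window held 2, the *Adm* window 2 and the *Aldoc* window 1. *Aldoc* has another window further downstream, at the other start, which also held 1 match and is not shown. The table matched 35 of the 38 genes, all but *Epas1*, *Bnip3l* and *Ndrg1*. A match was found in at least 1 window of 31 of the 35 genes (88.6%), and in 41.5% of all 27025 genes with a window. Per window, 39 of 49 of the set (79.6%) and 38.6% of all 32851 windows held a match, but the windows were not alike in base composition, with a median GC content of 61.6% in the set and 52.4% in all. Matches were found upstream of genes that were higher and of genes that were lower in CL basal. The core is short, and a match is a description of the sequence, not of binding.

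Genes of glucose entry and the upper, energy-consuming stage of glycolysis were mostly slightly lower in CL basal. Of the 10, 9 were lower and the interval lay below 0 for 7 of them, also with counts halved. Among all genes with at least 1000 counts, 42.3% were lower and 27.1% had an interval below 0, and over all genes tested the shares were 51.8% and 25.4%. Their median log2 fold change was -0.17. The glucose transporter *Slc2a1* (GLUT1, chromosome 4, 119108711 to 119137983, GRCm38) was read 6550 times in CL basal and 6673 times in Ctrl basal (log2 fold change -0.031, -0.080 to 0.019). Its value was -0.069 with total counts and -0.11 with the trend of fold change on expression removed. Hexokinases trap glucose in the cell as glucose-6-phosphate. *Hk1*, the widely expressed form, had 4401 and 5481 counts, -0.32 (-0.38 to -0.26), while the inducible *Hk2* had 2804 and 2824, -0.014 (-0.090 to 0.062). *Gpi1*, the isomerase that makes fructose-6-phosphate, had 3968 and 4372 counts, -0.14 (-0.21 to -0.081). A non-coding gene on the opposite strand, *Gm26762*, covers 11.5% of the exons of *Gpi1*, and the use of strand in counting is not stated.

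Phosphofructokinase commits sugar to glycolysis. The platelet-type gene *Pfkp* was read 5927 times in CL basal and 6607 times in Ctrl basal (-0.16, interval -0.21 to -0.11), and the liver-type gene *Pfkl* 1720 and 1981 (-0.21, -0.30 to -0.11). The muscle-type *Pfkm* was low, with 322 and 300 counts, and its interval of -0.13 to 0.33 held 0. Aldolase splits the phosphorylated sugar into trioses. *Aldoa* (chromosome 7, 126795234 to 126809108), the main form here, was read 11986 times in CL basal and 13491 times in Ctrl basal (log2 fold change -0.17, -0.21 to -0.14). *Aldoc* (chromosome 11, 78322968 to 78327781), the brain-type form, had 175 and 278 counts and fell by 0.67 on the log2 scale (-0.95 to -0.39), or to 0.631 of the Ctrl basal level. No other gene of the set passed 1.5-fold in that direction, and its level was low, at 1.39 (CL basal) and 2.22 RPKM (Ctrl basal). *Tpi1*, which interconverts the triose phosphates, had 2806 and 3408 counts, -0.28 (-0.36 to -0.21).

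In the lower stage, which yields ATP, *Eno1* stood apart while its neighbours in the pathway had nearly equal levels. *Eno1* (chromosome 4, 150236721 to 150248879), the ubiquitous enolase, was read 6284 times in CL basal and 8850 times in Ctrl basal (log2 fold change -0.50, -0.54 to -0.45). A decrease of that size or more was seen in 3.28% of genes with at least 1000 counts. The 2 copies that share at least 10% of its 50-base windows summed to 185 counts in CL basal and to 272 in the other library. The neuronal form *Eno2* had 65 and 89 counts and an interval of -0.94 to 0.021. The other 4 genes of this stage had log2 fold changes near 0. *Gapdh* (chromosome 6, 125161715 to 125166467), the glyceraldehyde phosphate dehydrogenase often used as a reference gene, was at 0.048 (0.0084 to 0.088), read 10460 times in CL basal and 10092 times in Ctrl basal. *Pgk1* (chromosome X, 106187100 to 106203699), the kinase of the next step, was at -0.084 (-0.15 to -0.018), with 3610 and 3817, and at -0.15 with the trend of fold change on expression removed. *Pgam1*, the mutase, was at 0.037 (2813 and 2734 counts), and its sign turned with total counts (-0.00085) and with the trend removed (-0.018). *Pkm* (chromosome 9, 59656368 to 59679375), pyruvate kinase, was at -0.016 (-0.041 to 0.0099), with 24562 and 24766, and at -0.054 with total counts and -0.098 with the trend removed. With counts halved the intervals of *Gapdh* and *Pgk1* held 0 as well. The sign of *Gapdh* turned when the trend of fold change on expression was removed (-0.035). *Pgk1*, *Pgam1*, *Eno1*, *Pkm* and *Gapdh* share 53.9%, 36.2%, 26.0%, 25.8% and 24.7% of their 50-base windows with other genes, some of them expressed copies, and 15.3% of the exons of *Pkm* overlap a same-strand gene, *RP23-320D23.6*, so their counts are less certain than those of single-copy genes.

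Over the 17 enzymes from hexokinase to lactate dehydrogenase, counts summed to 92867 (CL basal) and 99866 (Ctrl basal), and the sum differed by -0.11 on the log2 scale. The median was -0.14, with 12 lower and 5 higher, of which *Pgam1* and *Ldha* turned sign with total counts and those and *Gapdh* with the trend removed. Differences were uneven along the pathway, from *Aldoc*, *Eno1*, *Eno2*, *Hk1* and *Tpi1* at the low end to *Ldhb* at the high end.

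**Figure D3:**
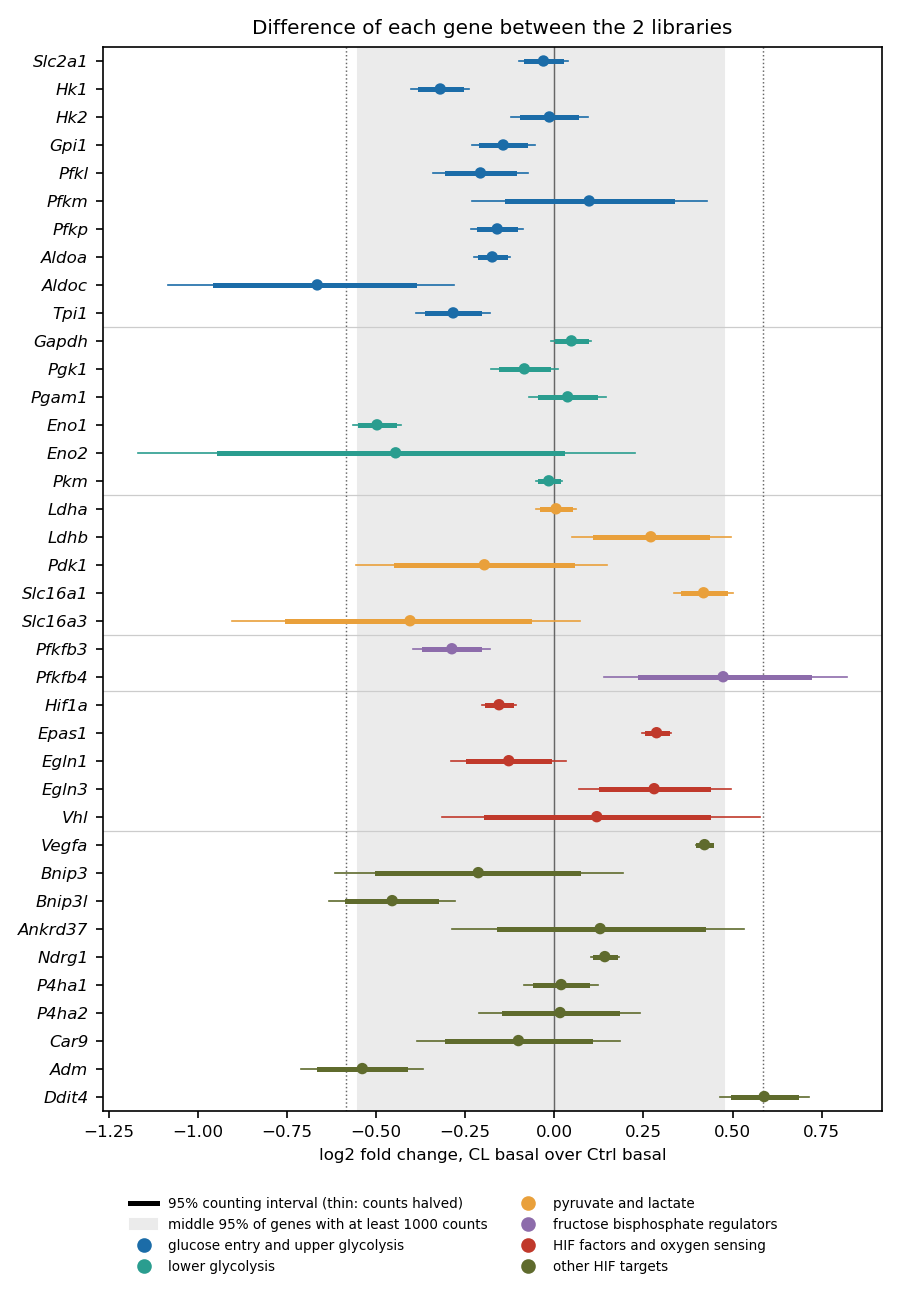
Log2 fold change of CL basal over Ctrl basal for each gene by role, with 95% exact binomial intervals (thick) and the same with counts halved (thin); the grey band is the middle 95% of genes with at least 1000 counts, and dotted lines mark 1.5-fold. *Ddit4* at 0.59 and *Aldoc* at -0.67 lie outside the band.

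At the pyruvate branch the forms of an enzyme or transporter did not move together. *Ldha*, the lactate dehydrogenase subunit that favours lactate formation, was read 10227 times in CL basal and 10167 times in Ctrl basal (log2 fold change 0.0048, -0.035 to 0.045), and the sign turned with total counts (-0.034) and with the trend removed (-0.078). *Ldhb*, the heart-type subunit, had 737 and 609 counts, 0.27 (0.11 to 0.43). *Pdk1*, a kinase that switches off pyruvate dehydrogenase, was low at 257 and 294 counts with an interval of -0.44 to 0.049. *Slc16a1* (MCT1, chromosome 3, 104638668 to 104658462) carries lactate and pyruvate across the membrane in either direction. It was read 5407 times in CL basal and 4034 times in Ctrl basal (log2 fold change 0.42, 0.36 to 0.48), and 4.14% of genes with at least 1000 counts were higher by as much. *Slc16a3* (MCT4), the exporter of glycolytic cells, was sparse at 129 and 171 counts, -0.40 (-0.75 to -0.072), and with halved counts its interval held 0. Among the bifunctional enzymes that set fructose-2,6-bisphosphate, an activator of phosphofructokinase, *Pfkfb3* and *Pfkfb4* also went opposite ways. Their relatives *Pfkfb1* and *Pfkfb2*, outside the set, are given further below. *Pfkfb3* had 2518 and 3066 counts, -0.29 (-0.36 to -0.21). *Pfkfb4* had 353 and 253, 0.47 (0.24 to 0.72).

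These shifts within families need no scaling between libraries, since both genes of a pair are read in each. *Pfkfb4* supplied 17.9% of *Pfkfb3* and *Pfkfb4* RNA per kilobase in CL basal, where Ctrl basal had 11.3%, with a log2 odds ratio of 0.76 (0.51 to 1.02). *Slc16a1* supplied 98.1% and 96.6% of the transporter pair, 0.83 (0.49 to 1.18). Among hexokinases the share of *Hk2* was 47.7% (CL basal) and 42.4% (Ctrl basal), with a log2 odds ratio of 0.31 (0.21 to 0.40). *Aldoc* took 1.66% and 2.32% of the aldolases, -0.50 (-0.78 to -0.22), and *Ldhb* 13.2% and 11.2% of the lactate dehydrogenases, 0.27 (0.10 to 0.43). All 5 intervals lay on 1 side of 0 with counts halved too. *Pfkm* supplied 9.63% of the phosphofructokinases in CL basal, where Ctrl basal had 8.08%, with a log2 odds ratio of 0.27 (0.034 to 0.51) that held 0 once counts were halved. The enolases, *Bnip3* with *Bnip3l*, the collagen hydroxylases *P4ha1* and *P4ha2*, and *Pfkl* and *Pfkp* against the rest of their family had intervals that held 0.

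**Figure D4:**
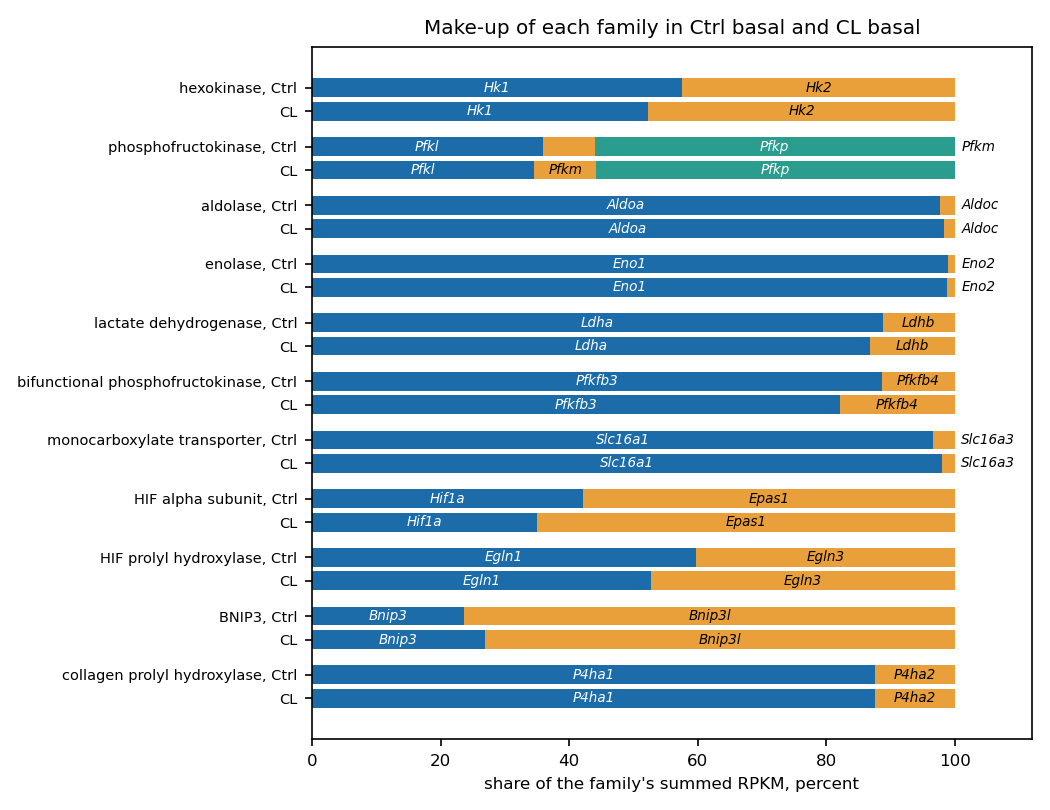
Share of each gene in the summed RPKM of its family (horizontal axis, percent) in Ctrl basal and CL basal, 1 library each; genes too small to label inside their bar are named at the right. *Epas1* goes from 57.8% to 65.0% of the HIF alpha subunits, while the collagen prolyl hydroxylases are at nearly the same shares. Families hold only genes of the set, so relatives such as *Egln2* and *Pfkfb2* are left out.

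The genes for the oxygen-regulated subunits moved apart. *Hif1a* (HIF-1 alpha, chromosome 12, 73901375 to 73947530) was read 13421 times in CL basal and 14907 times in Ctrl basal (log2 fold change -0.16, -0.19 to -0.12), or -0.24 with the trend of fold change on expression removed. *Epas1* (HIF-2 alpha, chromosome 17, 86753907 to 86833410) had 22468 and 18369, 0.29 (0.26 to 0.32), or 0.20 with the trend removed. Shifts of these sizes were common: of genes with at least 1000 counts, 20.2% were lower by as much as *Hif1a* and 12.3% higher by as much as *Epas1*. *Epas1* was the higher of the pair in both libraries, at 110 (CL basal) and 90.2 RPKM (Ctrl basal), where *Hif1a* had 59.2 and 65.9 RPKM, and its share went from 57.8% in Ctrl basal to 65.0% in CL basal, a log2 odds ratio of 0.44 (0.40 to 0.49). *Epas1* is also strongly expressed in endothelium, whose 9 markers had a median log2 fold change of -0.24, and 6 of them were lower in CL basal. The sort gates out CD31+ endothelial cells, and the part of endothelial RNA in the *Epas1* value was not tested.

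Of the HIF prolyl hydroxylases, *Egln1* (PHD2), the main sensor at normal oxygen, had 1221 and 1331 counts, -0.13 (-0.24 to -0.015), an interval that held 0 with counts halved. *Egln3* (PHD3), itself induced by HIF, had 810 and 665, 0.28 (0.13 to 0.43). *Egln3* supplied 47.2% of the pair in CL basal, where Ctrl basal had 40.3%, with a log2 odds ratio of 0.41 (0.22 to 0.60). *Vhl*, the recognition subunit of the ligase, was low at 182 and 167 counts, and its interval of -0.19 to 0.43 held 0.

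Among the remaining HIF targets there was no common direction: of 10 genes, 6 were higher and 4 lower in CL basal, and the median log2 fold change was 0.018. With total counts 4 were higher and 6 lower, with a median of -0.021, and with the trend removed 5 and 5, with a median of -0.0048. The difference between their sums, 95724 (CL basal) and 76871 counts (Ctrl basal), was carried by *Vegfa*, without which the sums were 30506 and 28299. *Vegfa* (chromosome 17, 46016993 to 46032369), the main growth factor for blood vessels, had 65218 and 48572 counts (log2 fold change 0.42, 0.40 to 0.44). An increase of that size was found in 4.07% of genes with at least 1000 counts. *Ddit4* (REDD1, chromosome 10, 59949675 to 59951770), an inhibitor of mTORC1 that responds to hypoxia, glucocorticoids and energy stress, was read 2661 times in CL basal and 1764 times in Ctrl basal. It was higher by 0.59 on the log2 scale (0.50 to 0.68) and only just met the 1.5-fold threshold, and 1.01% of genes with at least 1000 counts were higher by as much. With scaling by total counts, and with the trend of fold change on expression removed, *Ddit4* fell short of 1.5-fold, and its values over 11 settings ran from 0.55 to 0.60. Immediate early genes were higher in the same library, and their part in the *Ddit4* and *Vegfa* values was not tested.

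Other targets lay on the lower side. *Adm*, which encodes the vasodilator peptide adrenomedullin, was read 951 times in CL basal and 1379 times in Ctrl basal, -0.54 (-0.66 to -0.42). *Bnip3l* (NIX), a receptor that removes mitochondria, had 910 and 1245, -0.46 (-0.58 to -0.33), and its relative *Bnip3* 196 and 227, with an interval of -0.50 to 0.067. Both mitophagy genes share windows with copies elsewhere (20.8% for *Bnip3l* and 36.9% for *Bnip3*), and *Gm45507* overlaps 22.2% of the exons of *Bnip3* on the opposite strand.

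The rest differed little. *Ndrg1* (chromosome 15, 66929321 to 66969640), a stress-responsive differentiation gene, was abundant at 21461 and 19405 counts, 0.14 (0.11 to 0.17). Its value was 0.058 with the trend of fold change on expression removed. An increase as large as 0.14 was found in 32.4% of genes with at least 1000 counts. Collagen prolyl 4-hydroxylase subunits, which stabilize collagen, were at 0.019 for *P4ha1* (3053 and 3005 counts) and 0.016 for *P4ha2* (659 and 650), and both signs turned with total counts (-0.019 and -0.022), that of *P4ha1* also with the trend removed (-0.040). *Car9*, the tumour-associated carbonic anhydrase, had 400 and 428 counts, and *Ankrd37*, a small ankyrin repeat gene, 215 and 196, and both intervals held 0. *Lrp2bp* covers 22.7% of the exons of *Ankrd37* on the opposite strand. Of the 10 targets, *Vegfa*, *Ddit4* and *Ndrg1* were thus higher beyond counting error, *Ndrg1* by an amount common among abundant genes. *Adm* and *Bnip3l* were lower, and *Car9*, *Bnip3*, *Ankrd37*, *P4ha1* and *P4ha2* not different beyond counting error.

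Further genes of the same pathways were also split between higher and lower. Of 43 other glycolysis and pyruvate genes, 35 were tested, with a median log2 fold change of -0.13. At 1.5-fold, 1 was called lower, the insulin-responsive glucose transporter *Slc2a4* read 68 times in CL basal and 104 times in Ctrl basal (-0.60), and 3 were called higher, where the background was 8.92% lower and 4.15% higher. The higher genes were *Pfkfb2*, the heart-type bifunctional enzyme (405 and 243, 0.73), *Pdp2*, a phosphatase that activates pyruvate dehydrogenase (172 and 92, 0.88), and the transporter *Slc2a8* (33 and 6), which is named after its values were seen and rests on few counts. Of the bifunctional enzymes, *Pfkfb2* and *Pfkfb4* were thus both higher and *Pfkfb3* lower, and *Pfkfb1*, with 9 and 16 counts, had an interval of -2.19 to 0.43.

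Other genes of the HIF machinery, the partner subunits, the asparagine hydroxylase, coactivators and parts of the VHL ligase, numbered 18, of which 17 were tested. Their median was 0.085, beside 0.044 for all genes with at least 1000 counts. Of these genes 0 passed 1.5-fold in either direction, where the background was 8.92% lower and 4.15% higher. Most of them had at least 1000 counts, where the background was only 2.21% lower and 1.04% higher. *Hif3a* was at 0 counts in both libraries. Among 45 other hypoxia targets, all tested, the median was -0.066. At 1.5-fold 7 were called lower and 0 higher. The background was 8.92% lower over all genes tested and 2.21% over those with at least 1000 counts. *Hmox1*, heme oxygenase 1, was read 30347 times in CL basal and 62757 times in Ctrl basal, -1.05 (-1.07 to -1.03). The other genes called lower with at least 100 counts were *Loxl2*, a collagen crosslinking enzyme (-0.64), *Gys1*, glycogen synthase (-0.67), *Edn1*, endothelin 1 (-0.61), and *Narf* (-0.95). *Hmox1* also responds to oxidative stress and heme, and *Edn1* is made by endothelium among other cells. Of the endothelial markers 6 of 9 were lower in CL basal, and their part in the *Edn1* value was not tested.

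**Figure D5:**
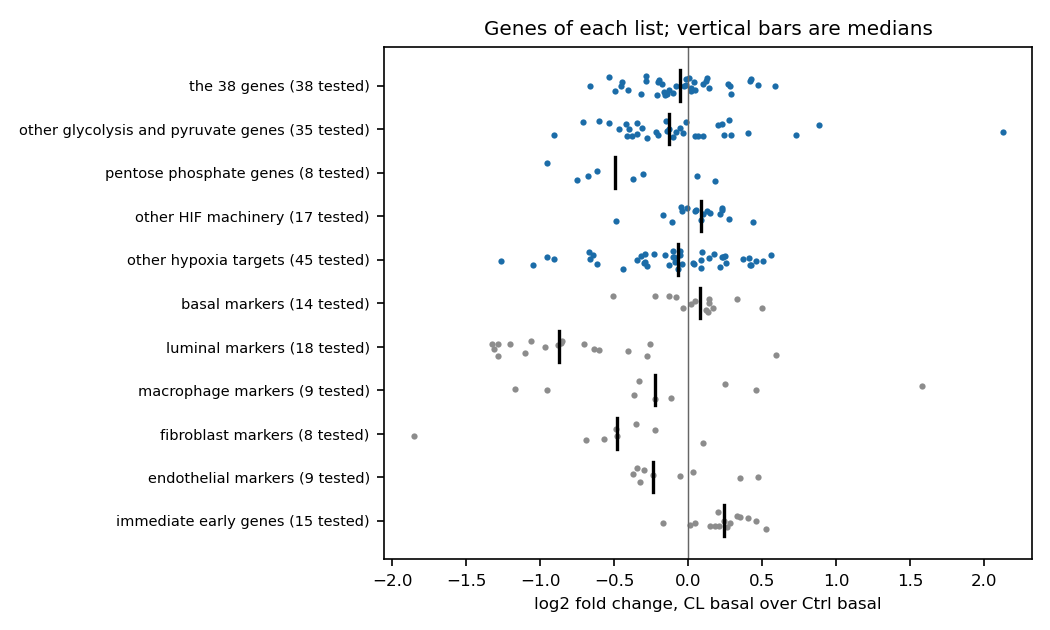
Log2 fold change of CL basal over Ctrl basal (horizontal axis) of each tested gene, by list, with the median of each list as a vertical bar; pathway lists are blue and cell type or handling lists grey. The 38 genes centre at -0.057, luminal markers at -0.87 and immediate early genes at 0.24.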

How the data were processed

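The deposited values were raw read counts per gene from the authors, not normalized, with an exon length per gene, in the column layout of featureCounts. The submitters' processing notes name GRCm38 and mm10. The aligner, the annotation release and the use of strand are not given in the sources used here, and 2 columns of the authors' own comparison, a ratio and a log2 fold change, were not used. The labels name an RNeasy kit and a SMARTer library kit, while the study's methods name another RNA reagent.

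Counts were scaled by TMM in edgeR 4.0.16 (R 4.3.3) over genes with at least 20 counts, and log2 fold changes used a prior count of 2. Each gene was tested with a two-sided exact binomial test of the 2 libraries in scipy 1.17.1 (Python 3.11.15), adjusted by Benjamini-Hochberg over 17356 genes. The script was tested on simulated data with known changes. Models that need replicates (edgeR's quasi-likelihood test, DESeq2, limma) could not be fitted. RPKM used the TMM library sizes. Intervals of 95% and the floor of 3 counts cover counting error only, and separately counted mates or PCR copies would make them too narrow. Of counts from 1 to 20, 68.7% in CL basal and 67.9% in Ctrl basal were even, against 49.9% and 49.7% above 1000.

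The rule for genes given in full was those past 1.5-fold and the 10 with the highest RPKM, with the rest given by role. *Eno1*, *Slc16a1* and *Adm* fall outside it and were chosen for fuller description after their values were seen. Genes of other lists were to be named at 1.5-fold and 100 counts. *Slc2a8*, *Pfkfb1*, *Egln2*, *Hif3a*, *Tkt*, *Rpia*, *Rpe* and the marker genes named fall outside that rule and were also chosen after their values were seen. Members and lists were chosen with earlier results of these data known. *Eloc* and *Elob* were found under older symbols, and 10 of 11 copies and paralogues of the enzymes were in the table (in sum, 484 counts for Ctrl basal and 444 for CL basal). Alternatives were total counts, DESeq2 1.42.0 size factors and the upper quartile, prior counts of 0.5 and 5, no filter and at least 100 counts, halved counts, thinning the deeper library, removing the trend on expression, an adjusted p under 0.001, and an edgeR exact test in which the coefficient of variation was set to 0.2 or 0.4.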

Additional observations from a re-analysis of the deposited data

How the results depend on the processing

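No paired analysis was possible because there was 1 library on each side, and the spread between mice could not be estimated. No gene of the set was called at 2-fold under any alternative. At 1.5-fold, the 1 higher gene, *Ddit4*, became 0 with total counts, with the trend on expression removed, and when the coefficient of variation was set to 0.2 or 0.4. The 1 lower gene, *Aldoc*, became 0 at these 2 settings. Under that assumption calls at 2-fold among all genes fell from 753 lower and 327 higher to 108 and 42 at 0.2 and to 0 and 2 at 0.4, since the assumed spread widens the test. Calls at 2-fold ran to 1171 lower and 535 higher with no filter and 247 and 65 with at least 100 counts, through the low genes that enter or leave, and were 483 and 146 with counts halved and 462 and 144 at an adjusted p under 0.001. List medians kept their sign under all 10 alternatives that change them, from -0.10 to -0.047 for the set, -0.17 to -0.12 for other glycolysis and pyruvate genes, 0.047 to 0.095 for other HIF machinery and -0.10 to -0.055 for other hypoxia targets. Of the 38 genes, 5 changed the sign of their log2 fold change under at least 1 of these alternatives: *Gapdh* with the trend removed (-0.0351), *P4ha2* with total counts (-0.022), and *Ldha* (-0.0335 and -0.0782), *Pgam1* (-0.00085 and -0.018) and *P4ha1* (-0.019 and -0.040) with total counts and with the trend removed. The median of the 10 remaining HIF targets, 0.018, turned to -0.021 and -0.0048 at these settings. The share of *Pfkp* in its family, CL basal minus Ctrl basal, differed by -0.242 percentage points per kilobase. Its sign turned, to 0.0395 percentage points, when counts replaced counts per kilobase. Removing the trend lowered the values of the 10 genes with the highest RPKM. *Ldhb*, *Egln3* and *P4ha2*, each with at least 1000 counts, moved slightly upward. Depth limits the genes with few counts, such as *Eno2*, *Slc16a3*, *Vhl*, *Ankrd37* and *Bnip3*, whose intervals are wide.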

Other observations

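The pentose phosphate pathway branches from glycolysis at glucose-6-phosphate and makes NADPH and ribose. Of its 8 genes, 6 were lower in CL basal and the median log2 fold change was -0.49, beside -0.0065 for all genes tested. At 1.5-fold 4 were called lower, beside 8.92% of all genes tested and 2.21% of those with at least 1000 counts, and 0 higher. *Pgd*, 6-phosphogluconate dehydrogenase (chromosome 4, 149149991 to 149166771), was read 2058 times in CL basal and 3975 times in Ctrl basal (log2 fold change -0.95, 95% exact binomial interval -1.03 to -0.88). *G6pdx*, the glucose-6-phosphate dehydrogenase that opens the pathway, had 900 and 1375 counts (-0.61), *H6pd*, its counterpart in the endoplasmic reticulum, 270 and 432 (-0.68), and *Taldo1*, transaldolase, 854 and 1439 (-0.76). *Tkt*, transketolase, had 2129 and 2746 counts (-0.37). The isomerase *Rpia* and the epimerase *Rpe* had 1848 and 1767 (0.061) and 323 and 284 counts (0.18). Luminal markers were lower in the same library, with a median of -0.87 over 18 genes, and their part in these values was not tested.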
